A study of Mus musculus with 5 samples.

Results

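The comparison described here sets nuclei from mouse kidneys 64 h after ischaemia-reperfusion injury against nuclei from kidneys without injury, in 1 GFP-positive library each. Its members are all nuclei of these libraries with at least 200 detected genes: 3508 without injury and 3012 at 64 h, together 6520 of the 16359 such nuclei (16666 deposited barcodes) in the 5 libraries of the series. Every deposited barcode of both libraries met the limit. The mice were males aged 10 to 12 weeks and weighing 25 to 28 g that carried Six2-TGC, Rosa26rtTA and pTRE-H2BeGFP and ate doxycycline food at 625 mg per kg. The injured animals had both renal pedicles clamped under ketamine and xylazine. Nuclei were sorted for DAPI, a DNA stain, and then for GFP, and 4000 nuclei per lane were loaded on the 10x Genomics 3' v2 droplet system. Six2-TGC expresses Cre in nephron progenitors, so the histone-GFP marks nephron epithelium, while collecting duct, vessels, stroma and blood cells lie mostly outside the label. The sample labels describe the reference animals as uninjured but the design text of the series speaks of sham surgery, so it is unclear whether they were operated on. Serum creatinine was 0.122 mg/dL without injury and 0.375 mg/dL at 64 h, and blood urea nitrogen was 26.1 and 37.0 mg/dL. The number of animals behind each library is not given in the sources used here.

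The proximal tubule reabsorbs most of the filtrate and secretes organic anions, and its last segment, S3, in the outer medulla is the stretch most often damaged when renal blood flow stops. After such an injury surviving tubule cells flatten, reduce their transporters and take on injury markers such as Havcr1 (kidney injury molecule 1), Krt20 and Lcn2 before the epithelium is rebuilt. The thick ascending limb, which takes up salt through the cotransporter encoded by Slc12a1 and makes uromodulin and epidermal growth factor, borders S3 in the same zone.

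The library without injury held 7153971 unique molecular identifiers (UMIs, single counted transcripts) and the 64 h library 4500630, with medians of 1793.5 and 1290 UMIs and 992.5 and 837 genes per nucleus. Values are UMIs scaled to the total of the library or segment (CPM), and each ratio is the 64 h level over the level without injury, with its 95% interval for counting error in parentheses. These intervals hold no animal-to-animal spread, because each side is 1 library, and no test was possible. A gene was measured where both libraries together held at least 50 UMIs, and "at least 2-fold" is a size, not a call of significance. A gene low in 1 library could pass this limit through its UMIs in the other. Counts of higher or lower genes, and list medians, are thus partly set by the limit. Reads of Malat1, an abundant nuclear RNA, made up 20.8% of UMIs without injury and 13.0% at 64 h, which moves the scale of all other genes. Mitochondrial UMIs were 0.0888% and 0.118%, those of ribosomal protein genes 0.58% and 1.1%, and the libraries shared 16 barcodes. Summed proximal tubule markers stood at 10849 and 7210 CPM, S1 markers at 1631 and 1013 CPM, S2 markers at 3300 and 3038 CPM and S3 markers at 1792 and 610 CPM. Podocyte markers stood at 1162 and 520 CPM, endothelial markers at 68.9 and 104 CPM, fibroblast and mural markers at 15.1 and 28.9 CPM, and macrophage and dendritic markers at 38.6 and 26.7 CPM. Podocyte-like nuclei numbered only 15 and 6. The podocyte marker Magi2 had 3791 and 785 UMIs in proximal tubule-like nuclei, so the podocyte sum is not a measure of podocytes alone. T and natural killer markers were at 11.6 and 22.7 CPM, with Cd3g and Cd247 at 0 in both, and the neutrophil genes S100a8, S100a9 and Retnlg were at 0 in both. The part of these shifts in the results below was not tested.

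Clustering of all 5 libraries together put similar shares of nuclei in proximal tubule-like clusters, 66.6% without injury and 66.1% at 64 h, but in different clusters. Without injury most lay in a cluster led by Slco1a1 (1262 nuclei, 36%) and in 2 led by the S1 glucose transporter gene Slc5a2 (386 and 427 nuclei). At 64 h a cluster led by Cyp2a5 and Dpp4 held 1479 nuclei, 49.1% of the library, against 44 or 1.25% without injury, and the Slco1a1-led cluster held 62 nuclei or 2.06%. A cluster led by the S3 gene Cyp7b1 held 204 nuclei (5.82%) without injury and 12 (0.398%) at 64 h. Thick ascending limb-like nuclei made up 9.49% and 15.7%, and 287 of the 473 at 64 h lay in a cluster led by Lcn2 and Clu that held 11 nuclei without injury. A cluster led by Vcam1, Cd44, Cdh6, Csf1 and Havcr1, left without a cell type name, held 66 nuclei (1.88%) and 197 (6.54%). The clusters were built from the same counts as the ratios, so their sizes and leading genes are no separate evidence. In library sums, fewer nuclei of a type and less RNA of a gene per nucleus cannot be told apart.

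Over all nuclei, the 64 h library had 1039 of 11397 measured genes (9.12%) at least 2-fold higher and 462 (4.05%) at least 2-fold lower, and the median log2 fold was 0.16. The balance of these counts depended on the scaling. Trimmed mean of M-values (TMM) factors shifted every log2 fold by -0.21 and gave 698 higher and 729 lower, and leaving the 50 most abundant genes out of the totals gave 739 and 678. Among measured genes of 0.231 to 12.7 kb, the shortest of 4 equal bins by gene length, 13.2% were at least 2-fold higher, against 7.14% to 8.19% in the other bins. That bin also had the largest share at least 2-fold lower, 5.17% against 2.95% to 4.04%. Its median log2 fold was 0.15, against 0.13 to 0.19 in the others. The genes named below as leading are those whose interval bound nearest to 1 lay farthest from it.

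**Figure D1:**
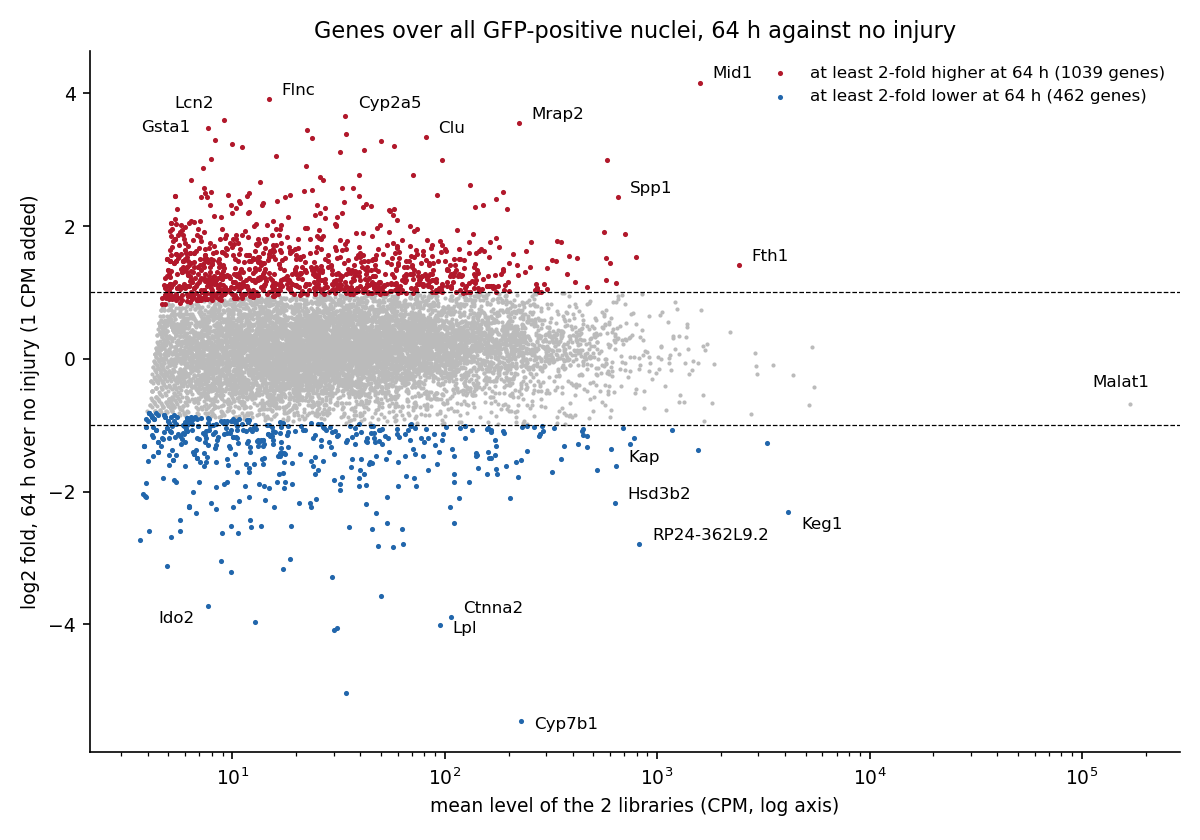
Mean level over both libraries (CPM, log axis) against the log2 ratio of 64 h to no injury (1 CPM added) for the 11397 measured genes over all nuclei. Each point is a gene, coloured where the ratio without the added CPM is at least 2-fold, and labels mark leading genes. Mid1 stands apart at high level and high ratio, Cyp7b1 at the lower edge.

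The genes that stood farthest above the uninjured library included known markers of injured epithelium. Mid1, which encodes a microtubule-bound ubiquitin ligase, had 1197 UMIs (167 CPM) without injury and 13517 UMIs (3003 CPM) at 64 h, a ratio of 17.9 (16.9 to 19.1). Lcn2, the secreted iron-siderophore carrier known as NGAL, was at 0.559 and 17.8 CPM, 31.8-fold higher (11.9 to 120). Clu, the extracellular chaperone clusterin, was at 13.8 and 149 CPM, a ratio of 10.8 (8.71 to 13.4). Krt20, a type I keratin, was at 5.17 and 63.3 CPM and 12.2-fold higher (8.67 to 17.7). Havcr1, the phosphatidylserine receptor by which injured proximal cells take up debris, was at 7.69 and 75.5 CPM and 9.83-fold higher (7.37 to 13.3). These 4 known markers of tubule injury all had lower bounds above 7-fold. Mid1 is not such a marker, did not follow the order of time over the libraries (130 CPM at 96 h, 1737 CPM at 28 d), and, with 1 library a group, a difference between animals cannot be told apart from one between conditions. Flnc, the actin cross-linker filamin C, was at 0.978 and 28.7 CPM, a ratio of 29.3 (13.8 to 74.3). Tmsb10, an actin monomer-binding thymosin, was at 8.53 and 91.8 CPM, a ratio of 10.8 (8.21 to 14.3). Mrap2, an accessory protein of melanocortin receptors, went from 34.2 to 413 CPM, a ratio of 12 (10.5 to 13.8). Gsta1, a glutathione transferase with close paralogues among which reads may be split, had 3 UMIs without injury and 67 at 64 h (ratio 35.5, 11.6 to 176).

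The genes that stood farthest below included enzymes, organic anion transporters and noncoding RNAs. Cyp7b1, an oxysterol 7-alpha-hydroxylase, went from 3218 UMIs (450 CPM) to 42 UMIs (9.33 CPM), 48.2-fold lower (35.6 to 67). Lpl, lipoprotein lipase, was at 179 and 10.2 CPM, 17.6-fold lower (13.1 to 24.1). Slc22a7, the organic anion transporter OAT2, was at 59.7 and 2.67 CPM, 22.4-fold lower (12.7 to 43.7). Slco1a1, an apical organic anion transporter, was at 54.5 and 4.67 CPM, 11.7-fold lower (7.54 to 19.1). All 4 were between 34.2 and 461 CPM again in the 28 d library, where Slco1a1 (73 CPM) stood above the uninjured level and Lpl (34.2 CPM) below it. Inmt, an amine N-methyltransferase, was at 25 and 0.667 CPM, 37.5-fold lower (12.6 to 184). Ido2, which opens the ring of tryptophan, had 109 UMIs without injury and 1 at 64 h. Aspdh, an aspartate dehydrogenase of NAD metabolism, was at 93.1 and 6.89 CPM, 13.5-fold lower (9.43 to 20.1). Ctnna2, alpha-N-catenin, was at 201 and 12.7 CPM, 15.9-fold lower (12.2 to 21.1). The long noncoding RNA RP24-362L9.2 on chromosome 7 was at 1443 and 208 CPM over all nuclei.

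**Figure D2:**
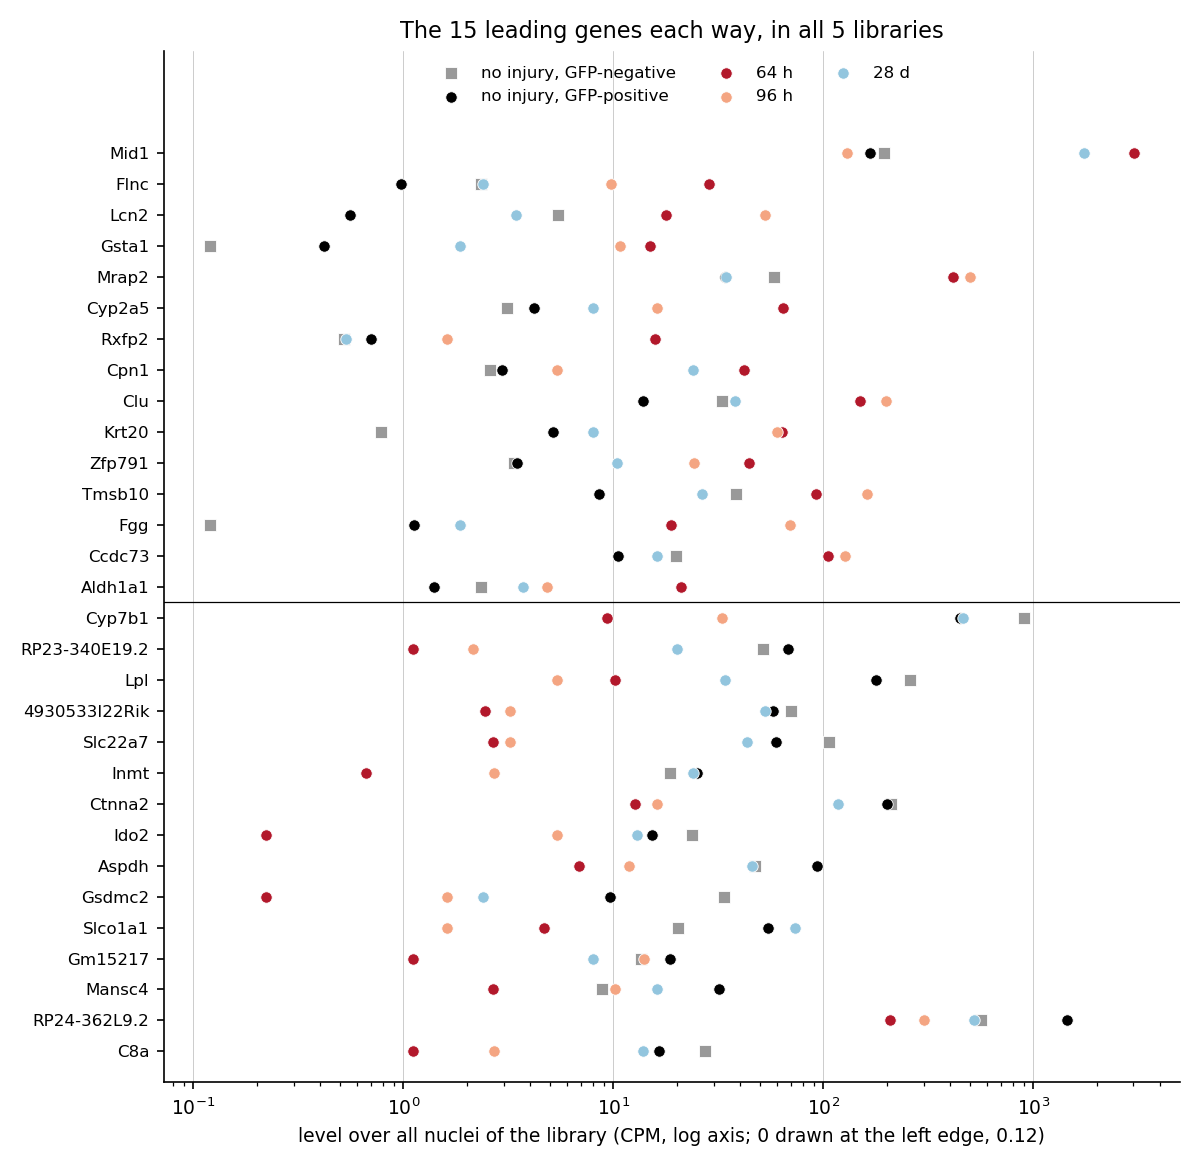
Level of the 15 leading genes each way over all nuclei of each of the 5 libraries (CPM, log axis), with the higher genes above the line. Mid1 is high at 64 h (3003 CPM) and 28 d (1737 CPM) but not at 96 h (130 CPM), while Mrap2 is high at 64 h and 96 h (413 and 499 CPM) and at 34.5 CPM at 28 d.

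The 3 windows below, each before the RefSeq start site (mouse build GRCm38.p6, 250 bases, 5' to 3' on the gene's strand), are shown because these genes lead in proximal tubule-like nuclei, Krt20 among the higher and Slco1a1 and Inmt among the lower, and their windows hold TATA box letters. They are examples: windows of other leading genes, that of Cyp2a5 among them, hold TATA, HNF4 or AP-1 letters too. Capitals mark these letters, TATAAA, searched on both strands. Of all 27025 genes with RefSeq windows, 14.3% held them in any of their windows, and some genes have several. The core letters of an HNF4 element, CAAAGT, were in a window of 14.1% of genes and in none of these 3 windows. The AP-1 letters TGANTCA were in a window of 7.82% of genes and in none of these 3 windows.
Krt20, chr11:99438154-99438403, minus strand: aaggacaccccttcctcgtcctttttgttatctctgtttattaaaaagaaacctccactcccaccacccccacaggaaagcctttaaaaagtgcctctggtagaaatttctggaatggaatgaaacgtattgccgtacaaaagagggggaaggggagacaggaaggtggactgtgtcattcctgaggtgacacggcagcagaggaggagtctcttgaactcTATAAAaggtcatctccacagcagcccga
Slco1a1, chr6:141946963-141947212, minus strand: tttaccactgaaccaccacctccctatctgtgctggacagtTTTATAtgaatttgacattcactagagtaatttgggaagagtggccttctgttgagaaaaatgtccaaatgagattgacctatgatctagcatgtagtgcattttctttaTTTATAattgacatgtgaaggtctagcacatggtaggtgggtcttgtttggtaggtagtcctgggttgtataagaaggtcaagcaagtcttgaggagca
Inmt, chr6:55174991-55175240, minus strand: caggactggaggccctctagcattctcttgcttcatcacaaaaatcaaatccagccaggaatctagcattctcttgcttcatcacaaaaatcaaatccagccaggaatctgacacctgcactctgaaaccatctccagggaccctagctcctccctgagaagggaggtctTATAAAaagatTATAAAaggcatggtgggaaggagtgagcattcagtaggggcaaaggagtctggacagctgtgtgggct
The Krt20 window holds the TATA letters once close to the start, the Inmt window at 2 places, and the Slco1a1 window at 2 places on the opposite strand, where they read TTTATA. These are matches of letters, not shown sites. Only 8614 of the 11397 measured genes (75.6%, under the 80% set as needed) had a window, so no share was computed for the higher or lower genes.

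In proximal tubule-like nuclei (4975248 UMIs without injury, 3002513 at 64 h), 907 of 9812 measured genes (9.24%) were at least 2-fold higher and 445 (4.54%) at least 2-fold lower, with a median log2 fold of 0.17. TMM factors shifted the folds by -0.22 and gave 575 and 698, so that ratios just over 2, such as 2.15 for Il34, fall under 2-fold with them. Mid1 had 128 CPM without injury and 2396 CPM at 64 h, a ratio of 18.8 (17.3 to 20.4). Fgg, the fibrinogen gamma chain, had 2 UMIs and 73 UMIs (ratio 60.5, 16.2 to 509), and Fga, the alpha chain, 22.9 and 56 CPM (ratio 2.44, 1.91 to 3.13). Cyp2a5, a xenobiotic-oxidising cytochrome P450 with the close paralogue Cyp2a4, had 5.23 and 86.3 CPM, a ratio of 16.5 (11 to 25.7), and it is 1 of the genes leading the cluster with most proximal nuclei at 64 h. Cpn1, a subunit of carboxypeptidase N, had 3.62 and 52.6 CPM (ratio 14.5, 8.91 to 25.2). Chst8, a sulfotransferase for N-acetylgalactosamine, had 3.01 and 48 CPM (ratio 15.9, 9.33 to 29.2). Lpcat2, which remodels phospholipids, had 4 and 55 UMIs (ratio 22.8, 8.41 to 86.6), and Aldh1a1, a retinal dehydrogenase, 7 and 69 UMIs (ratio 16.3, 7.52 to 42.1). S100a6, a small calcium-binding protein, had 14.7 and 130 CPM (ratio 8.88, 6.9 to 11.6).

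Among classical tubule injury genes (16 listed, 8 measured) 6 were at least 2-fold higher in proximal tubule-like nuclei and none lower, with a median log2 fold of 2.40 against 0.17 for all genes. Krt20 (11 and 120 UMIs) and Havcr1 reached the limit of 50 UMIs through the 64 h library, so this share and median are partly set by the limit. Spp1, osteopontin, had 112 and 783 CPM (ratio 6.98, 6.36 to 7.67), and Havcr1 had 20 and 117 UMIs (ratio 9.69, 6 to 16.5). Clu had 34 and 176 UMIs (ratio 8.58, 5.92 to 12.8). Lcn2 had 0 UMIs without injury and 14 at 64 h in proximal tubule-like nuclei, under the limit of 50 UMIs. Its 64 h level was 7.73-fold that of a floor of 3 counts without injury, and the lower interval bound of the ratio was 5.5. Sox9, a transcription factor of regenerating tubules, had 0 and 3 UMIs there, too few to measure. The share of proximal nuclei with an injury transcript stayed small for the low genes: thinned to 600 UMIs per nucleus, 0.171% of nuclei without injury and 2.06% at 64 h had a Havcr1 UMI (0.642% and 4.77% unthinned), with 103 shallower nuclei left out at 64 h. For Spp1 the thinned shares were 4.92% and 29.7% (15.2% and 50.3% unthinned). Of the actin and cytoskeleton genes measured, 12 in all, 9 were past 2-fold upwards, none downwards, and the median log2 fold was 1.15. Actb, cytoplasmic beta-actin, had 50.7 and 285 CPM (ratio 5.64, 4.89 to 6.51), Cfl1, the actin-severing cofilin, 14.1 and 40 CPM (2.84, 2.1 to 3.87), and Tubb5, a beta-tubulin, 4.82 and 19.7 CPM (4.07, 2.5 to 6.85).

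Stress response lists were higher by smaller amounts. Of 14 measured p53 target and DNA damage genes 5 were at least 2-fold higher in proximal tubule-like nuclei and none lower (median log2 fold 0.75). Gdf15, a stress-released cytokine of the TGF-beta family, had 16.5 and 103 CPM (ratio 6.26, 4.9 to 8.09), Gadd45a, a growth arrest gene, 8.04 and 37.6 CPM (4.68, 3.24 to 6.89), and Cdkn1a, the cell cycle inhibitor p21, 7.03 and 23.3 CPM (3.31, 2.18 to 5.12). In the cell cycle list 4 of 9 measured members (24 listed) were at least 2-fold higher, among them Top2a, the replicative topoisomerase, with 9 and 50 UMIs (9.21, 4.48 to 21.3). Thinned to 600 UMIs, 0.128% and 0.847% of proximal nuclei had a Top2a UMI (0.214% and 1.71% unthinned). In the unfolded protein response list 5 of 12 were at least 2-fold higher and none lower. The endoplasmic reticulum chaperone gene Hspa5 had 47 and 109 CPM (2.32, 1.95 to 2.75) and Ddit3, the CHOP factor, 42.6 and 129 CPM (3.03, 2.56 to 3.6), but Xbp1, the factor spliced by IRE1, had 58.1 and 34.6 CPM (0.596, 0.472 to 0.749). The heat shock list had 1 of 12 higher and none lower, near the 9.24% of all genes. Of 18 measured NRF2 and oxidative stress genes 8 were at least 2-fold higher and none lower. Txn1, thioredoxin, had 60.3 and 221 CPM (3.67, 3.2 to 4.22), Gpx4, which reduces lipid peroxides, 181 and 519 CPM (2.86, 2.64 to 3.11), and Hmox1, haem oxygenase 1, 13.3 and 39 CPM (2.94, 2.15 to 4.03). The iron list had 5 of 10 higher and none lower: Fth1, the ferritin heavy chain, had 1541 and 4501 CPM (2.92, 2.84 to 3), and Ftl1, the light chain, 1019 and 1975 CPM (1.94, 1.87 to 2.01). Csf1, the macrophage growth factor, had 3.62 and 33 CPM (9.11, 5.48 to 16), and Il34, the other ligand of the same receptor, 80.6 and 174 CPM (2.15, 1.89 to 2.46). Cyr61, an integrin-binding matrix protein, had 18.9 and 134 CPM (7.1, 5.66 to 8.99). Cytosolic ribosomal protein genes had 13 of 17 higher, lysosome and autophagy genes 6 of 13, and nuclear-encoded respiratory chain genes 9 of 19, none lower. Many of these genes are short and abundant in cytoplasm, and the library-wide ribosomal share was 0.58% without injury and 1.1% at 64 h. The part of cytoplasmic RNA was not tested.

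The lists with most genes at least 2-fold lower were of proximal transport and catabolism. Over all genes measured in proximal tubule-like nuclei, 4.54% were lower and 9.24% higher. Of 18 measured organic ion transporter genes 5 were lower and 2 higher, the latter near the background share (median log2 fold -0.43). In proximal tubule-like nuclei Slc22a7 had 72.8 and 4 CPM (18.2-fold lower, 10.3 to 35.6), Slc22a19, an organic anion transporter, 128 and 17.3 CPM (7.4-fold, 5.58 to 10), and Slc22a8, the anion exchanger OAT3, 35.8 and 10.3 CPM (3.47-fold, 2.36 to 5.25). Slc22a6, OAT1, had 146 and 104 CPM (1.4-fold, 1.23 to 1.61), so its shift was smaller than that of Slc22a8. Abcc2, the apical export pump MRP2, went the other way, with 361 and 1435 CPM (ratio 3.97, 3.76 to 4.2). Of 18 measured conjugation and detoxification genes 5 were lower and 1 higher (median -0.52), with Acsm2, which activates medium-chain acids, at 2790 and 1181 CPM (2.36-fold lower, 2.28 to 2.45) and Ces1d, a carboxylesterase, at 63.5 and 16.3 CPM (3.89-fold, 2.87 to 5.37). Of 18 measured amino acid and vitamin catabolism genes 6 were lower and 2 higher (median -0.57). On the kynurenine route of tryptophan breakdown and its branches, Ido2 had 92 and 0 UMIs, Kmo 105 and 27.6 CPM (3.8-fold, 3.01 to 4.84), Acmsd 44.8 and 16 CPM (2.8-fold, 2.04 to 3.91) and Qprt 48 and 9 UMIs (3.22-fold, 1.56 to 7.46). Kynu, kynureninase of the same route, went the other way, with 470 and 613 UMIs (ratio of CPM 2.16, 1.91 to 2.44). The list was chosen with earlier results known.

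The sodium-phosphate cotransporter gene Slc34a1 had 4283 and 2781 CPM in proximal tubule-like nuclei (1.54-fold lower, 1.5 to 1.58), and its relative Slc34a3 46.2 and 17 CPM (2.72-fold, 2 to 3.76). The endocytic receptor genes Lrp2 (megalin) and Cubn (cubilin) had ratios of 0.832 (0.8 to 0.866) and 1.02 (0.964 to 1.07). Slc7a13, an aspartate and cystine carrier of S3, had 982 and 329 CPM (2.98-fold lower, 2.78 to 3.19), while Slc7a12, a relative, had 7.24 and 53.3 CPM (ratio 7.36, 5.1 to 10.9). Dpp4, a brush border peptidase, had 302 and 785 CPM (2.6, 2.44 to 2.78), and Mep1b, the meprin beta subunit, 46 and 11 CPM (4.19-fold lower, 2.9 to 6.23). Fatty acid oxidation and peroxisome genes had 0 of 20 higher and 1 lower, which is near the background share. Of 16 measured proximal transcription factor genes 2 were higher and 1 lower: Hnf4g had 318 and 108 CPM (2.96-fold lower, 2.62 to 3.34), whereas the interval of Hnf4a held 1 (ratio 0.969, 0.875 to 1.07). In cholesterol synthesis, the synthase gene Hmgcs1 had 243 and 115 CPM (2.11-fold lower, 1.87 to 2.39). Cish and Socs2, feedback inhibitors of growth hormone and cytokine signals, had 85.8 and 4.66 CPM (18.4-fold lower, 10.8 to 34) and 42.8 and 13 CPM (3.3-fold, 2.33 to 4.76). In the clock list 2 of 14 measured genes were higher, 2 lower and 10 between, with a median log2 fold of -0.06. Over all measured genes 9.24% were higher and 4.54% lower. The clock activators Arntl (16.3 and 70.3 CPM, ratio 4.32, 3.33 to 5.65) and Npas2 (18.9 and 76.3 CPM, 4.04, 3.16 to 5.19) were higher and the output factor Dbp was lower (27.7 and 5.33 CPM, 5.21-fold, 3.09 to 9.36). The hour of collection is not given in the sources used here, and its part was not tested.

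**Figure D3:**
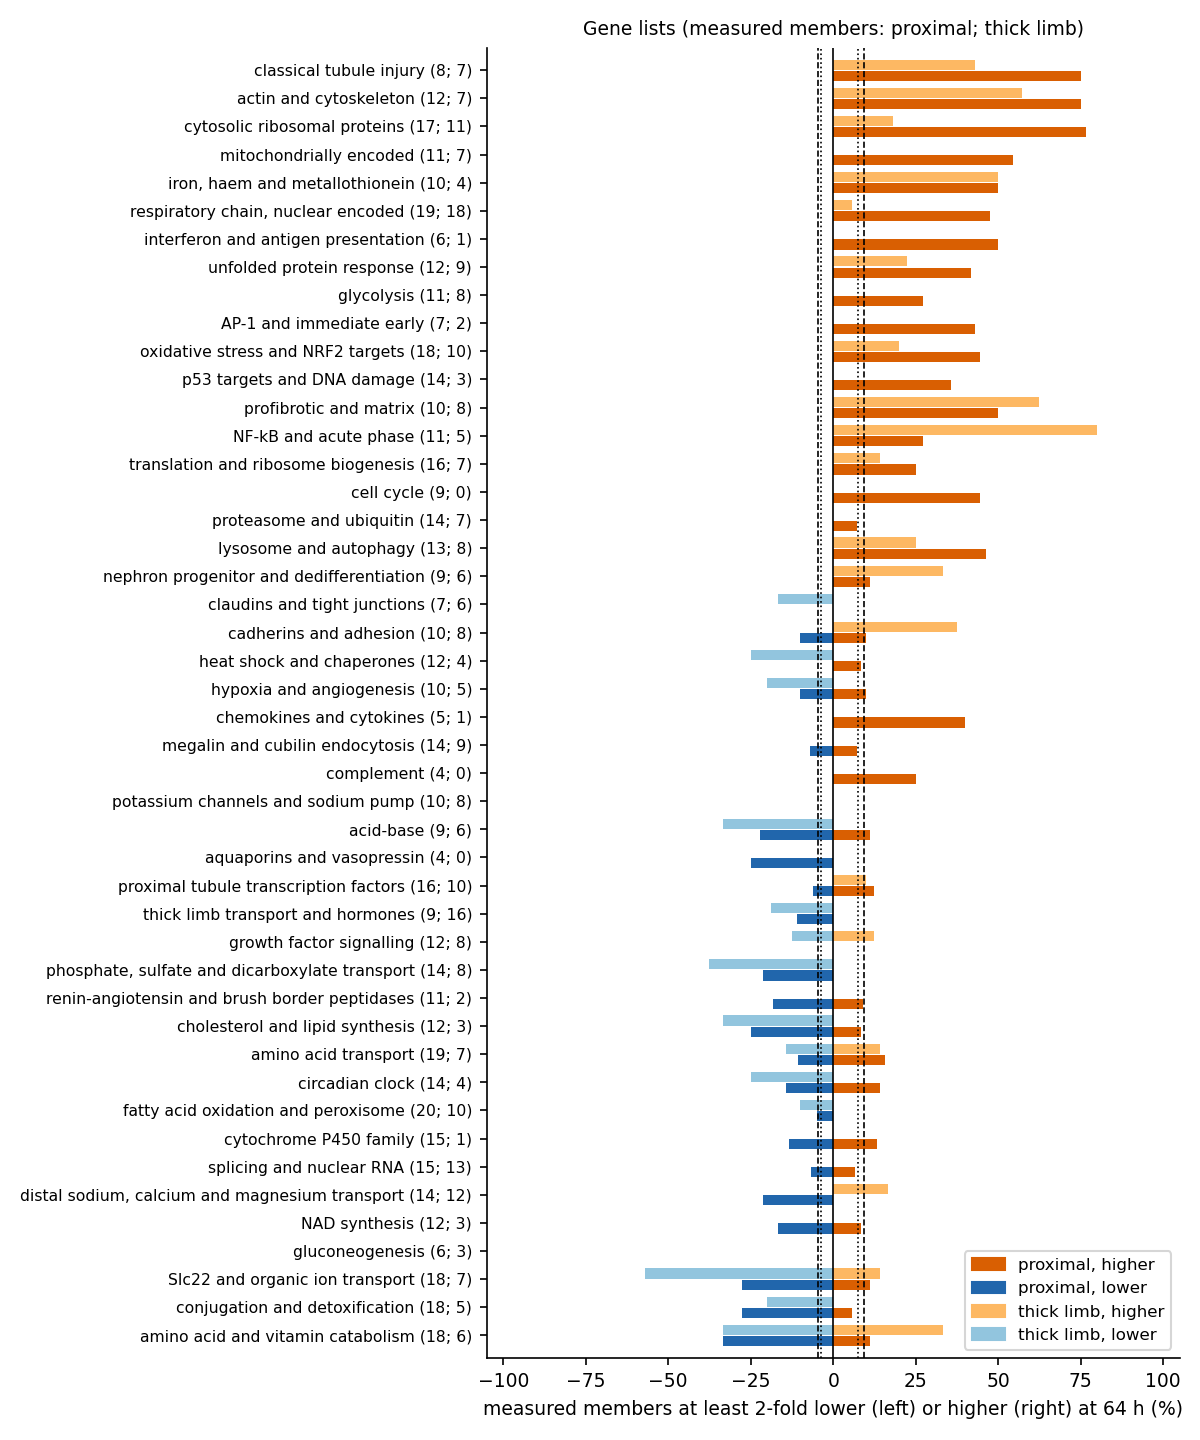
Percent of measured list members at least 2-fold higher (right) or lower (left) at 64 h in proximal tubule-like and thick ascending limb-like nuclei, for lists with at least 3 measured members. Vertical lines mark the share over all measured genes (9.24% and 4.54%, 7.63% and 3.67%); in proximal nuclei the ribosomal protein (13 of 17), injury (6 of 8) and cytoskeleton (9 of 12) lists reach far right, and in thick limb nuclei the NF-kB and acute phase list (4 of 5).

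Because different clusters held most proximal nuclei in the 2 libraries, the values were also taken in the 2 clusters led by Slc5a2 alone, which hold nuclei of both libraries (813 and 304). Within this subset too the clusters were filled unequally, 1 with 386 and 273 nuclei and the other with 427 and 31. There 254 of 4695 measured genes (5.41%) were at least 2-fold higher and 175 (3.73%) at least 2-fold lower. Mid1 was 13.1-fold higher (11.3 to 15.1) in these clusters, Mrap2 9.92-fold, Spp1 8.19-fold, Abcc2 3.75-fold, Actb 3.16-fold and Fth1 2.03-fold. Arntl (3.59) and Npas2 (5.39) were higher there too, and Cish (0.145), Aspdh (0.0856), RP24-362L9.2 (0.162) and Keg1 (0.248), an amino acid N-acyltransferase gene, were lower. Slc34a1 had a ratio of 0.94 in these clusters against 0.649 over all proximal tubule-like nuclei, and Hnf4g 0.552 against 0.338. The subset is led by S1 genes and leaves out the Cyp2a5-led cluster, with 1479 nuclei at 64 h. Smaller shifts of proximal genes are thus partly set by the choice of these clusters. Cyp7b1 had 21 UMIs and 1 UMI in them, a ratio of 0.228 (0.00552 to 1.42), so whether it was lower in these nuclei was not detectable at this depth. Fbxo17, an F-box protein gene, was 13-fold higher over all proximal tubule-like nuclei, with 12 and 94 UMIs. Its ratio of 0.959 in the Slc5a2-led clusters rests on at most 12 UMIs without injury, too few to give a direction.

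In thick ascending limb-like nuclei (404975 and 535223 UMIs), 268 of 3511 measured genes (7.63%) were at least 2-fold higher after injury, with 129 (3.67%) at least 2-fold lower. The cluster led by Lcn2 and Clu held 287 of the 473 nuclei at 64 h, and the distal convoluted tubule was its next most similar cell type. Without it, among 322 and 186 nuclei, 74 of 2192 genes (3.38%) were higher and 74 (3.38%) lower. Over all thick limb-like nuclei Cyr61 had 0 UMIs without injury and 64 at 64 h, 16.1-fold the level of a floor of 3 counts (lower interval bound 12.8). Runx1, a transcription factor gene, had 0 and 58 UMIs, 14.6-fold the level of that floor (lower interval bound 11.5). Outside the Lcn2-led cluster the same genes had 1 UMI and 0 UMIs at 64 h, so nearly all of these UMIs lay in that cluster. Adamts1, a matrix protease gene, had 2 and 122 UMIs (ratio 46.2, 12.5 to 385), and 2 and 11 UMIs without the cluster. Clu had 17.3 and 439 CPM (25.4, 12.1 to 63.9), and a ratio of 3.56 (1.21 to 11.7) without the cluster. Spp1 had 341 and 2819 CPM (8.27, 6.95 to 9.92), and 3.21 (2.59 to 3.99) without it. Mt2, a metallothionein, had 32.1 and 295 CPM (9.2, 5.23 to 17.7), and 6.12 (3.22 to 12.5) without it. Mid1 (15, 12.4 to 18.3) and Mrap2 (13.9, 9.03 to 22.4) were higher in the thick limb as in the proximal tubule, and without the cluster their ratios were 10.7 and 14.2. Nfkbiz, an NF-kappa-B cofactor, had 46.9 and 215 CPM (4.58, 2.8 to 7.88), and a ratio of 1.08 (0.445 to 2.46) without the cluster. Of 5 measured NF-kappa-B and acute phase genes 4 were higher in thick limb-like nuclei.

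The thick limb's own transport and hormone genes had 0 of 16 measured members higher and 3 lower (median log2 fold -0.50). Egf, epidermal growth factor, had 7603 and 2838 CPM (2.68-fold lower, 2.52 to 2.85), and outside the Lcn2-led cluster 7792 and 6827 CPM (ratio 0.876, 0.822 to 0.934). Slc12a1 had 12727 and 7193 CPM (1.77-fold lower, 1.7 to 1.85), and outside that cluster 12795 and 13802 CPM (ratio 1.08, 1.03 to 1.13). Umod, uromodulin, had 1474 and 1674 CPM (1.14, 1.02 to 1.26), and outside the cluster 1499 and 2939 CPM (1.96, 1.75 to 2.2). In the Lcn2-led nuclei at 64 h Slc12a1 had 3141 CPM and Egf 392 CPM, far under the level of the other thick limb-like nuclei. The Lcn2-led cluster had marker scores of 3.2 for thick limb and 2.42 for distal convoluted tubule, against 4.71 and 0.994 in the other thick limb-like nuclei. After thinning, 99.7% of all thick limb-like nuclei without injury and 71.9% at 64 h had a Slc12a1 UMI. Thick limb-like nuclei numbered 333 and 473. Whether the Lcn2-led cluster holds nuclei of another type, or thick limb nuclei with less RNA of these genes, was not tested. Slc9a3, the sodium-proton exchanger NHE3, had 486 and 164 CPM (2.96-fold lower, 2.29 to 3.85) and stayed lower outside the cluster (ratio 0.434, 0.305 to 0.604). Sgcz, a sarcoglycan gene, had 2175 and 207 CPM (10.5-fold lower, 8.6 to 12.9), and 5.22-fold lower outside it. Magi2, a junctional scaffold, had 2356 and 480 CPM (4.91-fold lower, 4.27 to 5.65), and 4.8-fold lower outside it. Tmem207 (464 and 80.3 CPM) and Prox1, a homeobox factor (237 and 37.4 CPM), were 5.78-fold and 6.34-fold lower, and 2.75-fold and 4.49-fold lower outside it.

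Proximal tubule and thick limb could be set against each other in 3363 genes measured in both. Of these, 87 were at least 2-fold higher in both (289 in the proximal tubule, 248 in the thick limb) and 22 at least 2-fold lower in both (82 and 99). Only 3 went 2-fold in opposite directions, and they were named after their values were seen. Gm26561, a long noncoding RNA, had ratios of 3.39 in proximal and 0.308 in thick limb-like nuclei. Slc12a3, the thiazide-sensitive cotransporter of the distal convoluted tubule, had 0.425 and 2.99, and in the thick limb outside the Lcn2-led cluster 0.622. Kcnj2, an inward rectifier potassium channel, had 0.35 and 2.05. Zbtb16, a zinc finger repressor inducible by glucocorticoids, had 41 and 212 CPM in proximal nuclei (ratio 5.18, 4.42 to 6.1) and 121 and 78.5 CPM in thick limb nuclei (0.649, 0.419 to 1), a difference in log2 fold of 2.99 (2.36 to 3.63). Sgcz differed by 3.62 (3.06 to 4.18), with a log2 fold of 0.23 in proximal and -3.39 in thick limb nuclei. Rgs7, a regulator of G-protein signalling, differed by 4.28 (3.08 to 5.48), with log2 folds of 0.62 and -3.67. On the thick limb side stood Adamts1 (-4.29, -6.34 to -2.24), Phactr1, an actin regulator (-3.28, -4.34 to -2.22), whose thick limb ratio was 8.32 and outside the Lcn2-led cluster 1.59 (0.582 to 4.22), and Nrg1, the ErbB ligand neuregulin 1 (-1.99, -2.31 to -1.66). Nrg1 had 247 and 873 CPM in thick limb-like nuclei, but a ratio of 1.11 (0.785 to 1.55) outside the Lcn2-led cluster.

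**Figure D4:**
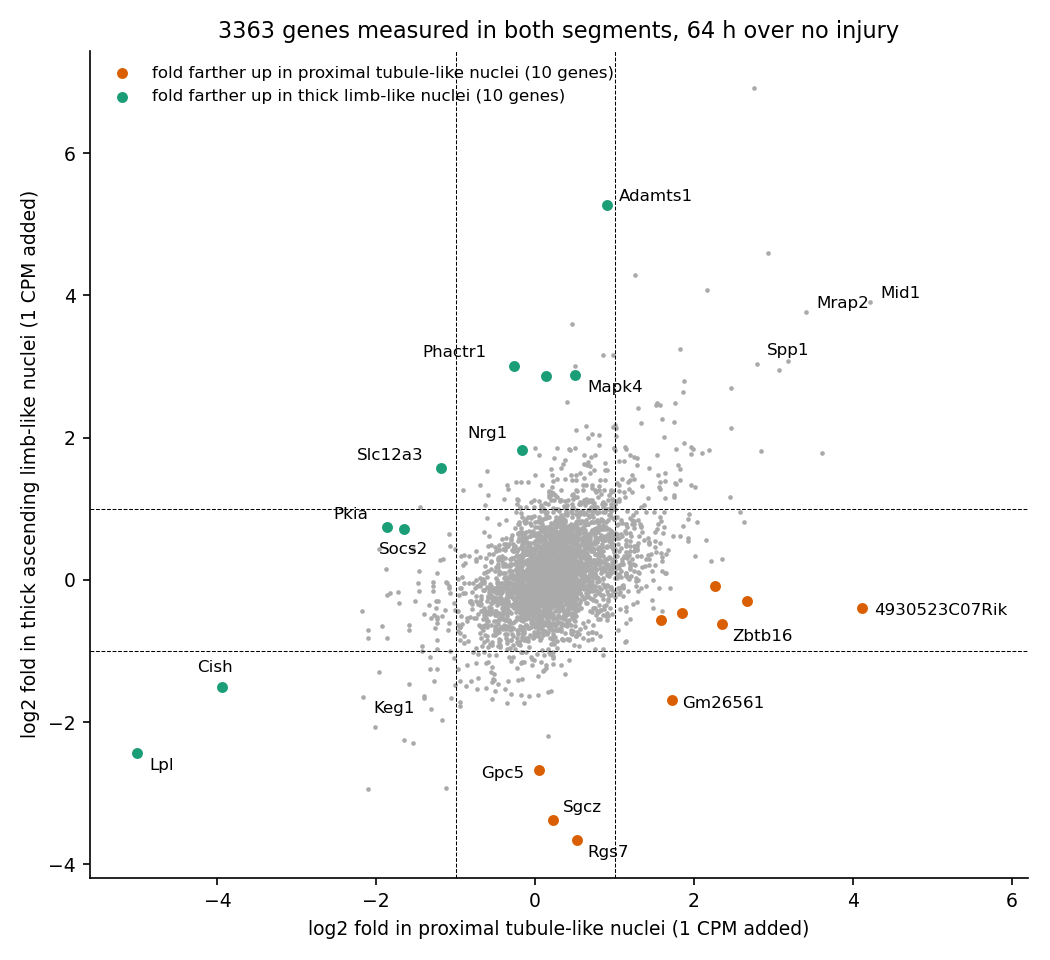
Log2 ratio of 64 h to no injury (1 CPM added) in proximal tubule-like (x) against thick ascending limb-like nuclei (y), for the 3363 genes measured in both; labels mark genes with the largest differences. Mid1 and Mrap2 are high on both axes, Adamts1 on the thick limb axis only, and Sgcz and Rgs7 are low on the thick limb axis only.

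Genes that differed in every segment were looked for among 3767 genes with at least 20 UMIs in each of 4 segments: proximal tubule-like, thick limb-like without the Lcn2-led cluster, thin limb-like, and distal convoluted, connecting and intercalated-like nuclei. Of these, 26 were at least 2-fold higher in all 4 and 16 at least 2-fold lower in all 4. Mid1 had ratios of 18.8, 10.7, 9.85 and 24.1 in that order, Mrap2 11.0, 14.2, 6.96 and 18.6, and Ccdc73 9.91, 9.15, 8.53 and 16. Peak1, a pseudokinase at focal adhesions, had 7.29, 3.58, 15.8 and 4.87, Actb 5.64, 3.88, 6.37 and 4.74, and Spp1 6.98, 3.21, 2.98 and 7.57. Across the other libraries these genes did not follow 1 course: Mid1 was at 130 CPM at 96 h and 1737 CPM at 28 d, whereas Mrap2 was at 499 and 34.5 CPM. Mid1 lies on the X chromosome (positions 169685199 to 170005736, plus strand, GRCm38) across the boundary of the pseudoautosomal region. Thinned to 600 UMIs, a Mid1 UMI was found in 7.57% and 67.4% of proximal nuclei (20.4% and 84.3% unthinned), in 13.5% and 83.4% of thick limb nuclei (21.3% and 91.1%) and in 7.06% and 78.6% of distal nuclei (22.7% and 89.1%). No cell type known to lack Mid1 was at hand to give the background of free RNA, whose part was not tested.

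The genes lower in all 4 segments were mainly proximal ones. Keg1 had ratios of 0.222, 0.288, 0.1 and 0.0827, Miox, myo-inositol oxygenase, 0.378, 0.226, 0.208 and 0.174, and Hsd3b2, a steroid dehydrogenase, 0.246, 0.271, 0.0521 and 0.105. Kap, the androgen-regulated kidney protein, had 0.318, 0.23, 0.395 and 0.234. Outside the proximal tubule their level may be that of RNA free in the droplets: after thinning, a Keg1 UMI was found in 97.9% of proximal and 23.7% of thick limb nuclei without injury, and in 60.6% and 7.94% at 64 h (median depths 1939 and 1092, then 1367 and 1038 UMIs). The part of free RNA was not tested. Cish, also in this set, was at 85.8 and 11.3 CPM over all nuclei, at 24.8 CPM at 96 h and at 84.7 CPM at 28 d.

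**Figure D5:**
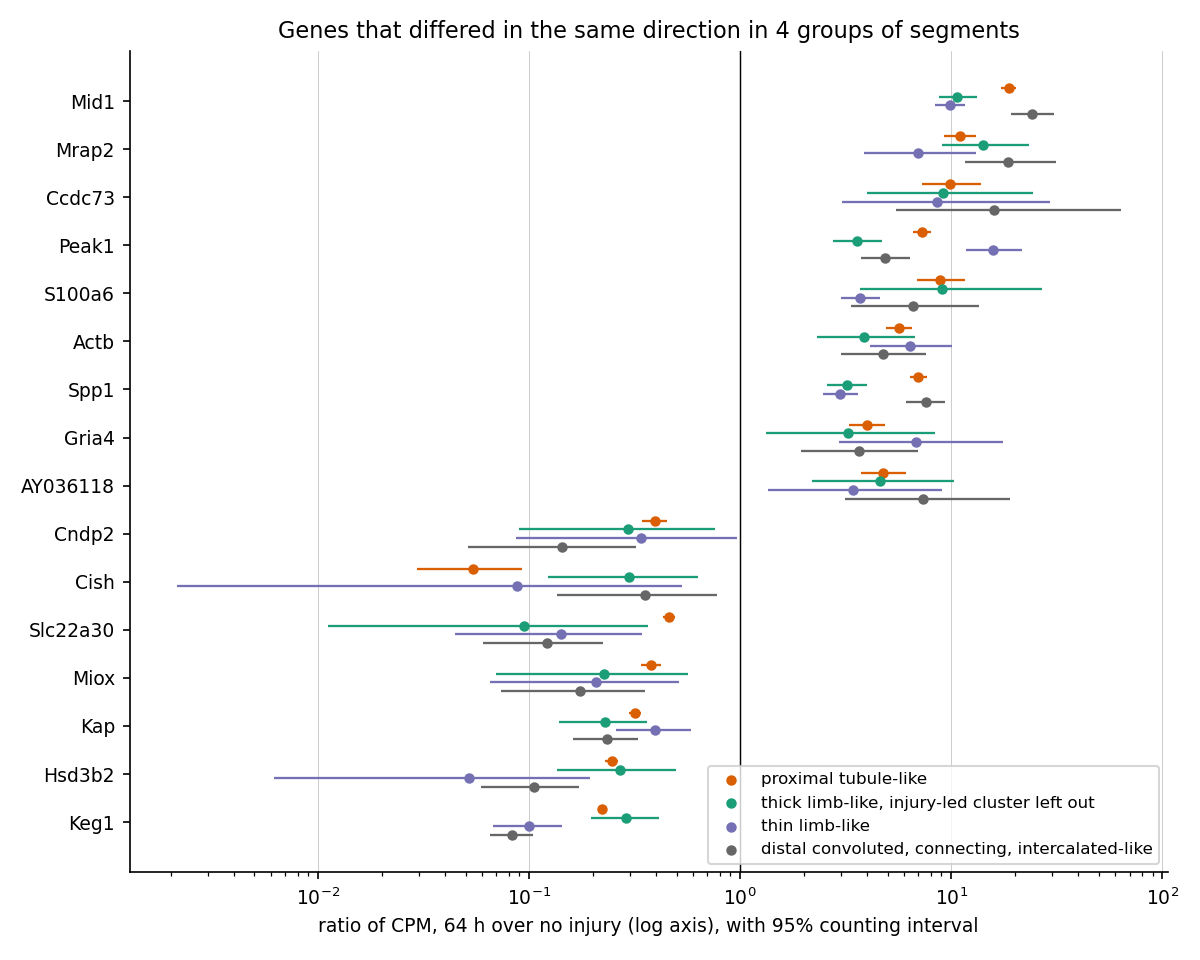
Ratio of 64 h to no injury (log axis) for genes at least 2-fold higher or lower in all 4 segments, with 1 point per segment and bars for the 95% counting interval. Mid1 lies between 9.85 and 24.1 in the 4 segments and Keg1 between 0.0827 and 0.288.

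Of 11 measured AP-1 and immediate early genes 8 were at least 2-fold higher over all nuclei and none lower, with a median log2 fold of 1.36, against 9.12% higher, 4.05% lower and a median of 0.16 over all measured genes. Atf3, a stress-induced AP-1 factor, had 9 and 44 UMIs (ratio 7.77, 3.74 to 18.1), and Fosl1, a Fos-family factor, 10 and 40 UMIs (6.36, 3.12 to 14.3). Klf6, a zinc finger factor induced early after injury, had 29.8 and 118 CPM (3.97, 3.38 to 4.68), and ratios of 3.72 in proximal and 6.47 in thick limb-like nuclei, or 1.94 (0.635 to 5.93) in the latter outside the Lcn2-led cluster. Of 14 measured profibrotic and matrix genes 7 were higher and none lower. Ctgf, a matricellular target of YAP, had 3.91 and 24 CPM (6.13, 4.01 to 9.65), but in proximal tubule-like nuclei 8 and 9 UMIs (1.86, 0.638 to 5.55). Plat, tissue plasminogen activator, had 11.2 and 54.7 CPM (4.89, 3.78 to 6.37). In the cadherin and adhesion list 4 of 14 measured genes were higher and none lower. Cd44, the hyaluronan receptor, had 2.94 and 17.1 CPM (5.83, 3.56 to 9.94) and Vcam1, an adhesion molecule for leukocytes, 8.53 and 32.4 CPM (3.8, 2.8 to 5.22). Both lead the unnamed cluster, which held 1.88% and 6.54% of nuclei. Of 7 measured interferon and antigen presentation genes 3 were higher and none lower, among them B2m, the light chain of class I molecules, with 54.8 and 127 CPM (2.32, 2.04 to 2.64). Of the lysosome and autophagy genes, 6 of 13 measured were at least 2-fold higher in proximal tubule-like nuclei (background 9.24%) and 2 of 8 in thick limb-like nuclei (background 7.63%), none lower. Ctsl, cathepsin L, had ratios of 3.64 (2.96 to 4.5) in proximal and 10.1 (4.44 to 28.3) in thick limb-like nuclei, or 4.53 (1.64 to 14.4) outside the Lcn2-led cluster. Ctsd, cathepsin D, had 2.9 (2.55 to 3.3) and 5.58 (3.72 to 8.67), or 2.46 (1.43 to 4.29) outside that cluster.

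In the unnamed cluster led by Vcam1, Cd44 and Havcr1 (66 and 197 nuclei), 485 of 2621 measured genes (18.5%) were at least 2-fold higher and 98 (3.74%) at least 2-fold lower. Within it 10 classical tubule injury genes were measured, of which 2 were at least 2-fold higher, Krt8 (3.78, 1.39 to 14.4) and Anxa2 (2.33, 1.51 to 3.77), and 1 lower, Cdh6 (0.35, 0.26 to 0.474). Havcr1 had a ratio of 1.87, Krt20 1.97 and Spp1 1.29. Vcam1, Cd44, Cdh6 and Havcr1 are on this list and lead the cluster, so nuclei of both libraries entered it through such genes. Ratios of injury genes are thus partly set by how the cluster was formed. Gdf15 (3.42) and Txn1 (6.79) were higher within it, and Slc34a1 (0.208) and Keg1 (0.149) were lower. Flnc had 0 UMIs without injury and 89 at 64 h in these nuclei, so that 89 of the 129 Flnc UMIs of the 64 h library lay there. In distal convoluted, connecting and intercalated-like nuclei 210 of 3376 genes (6.22%) were higher and 320 (9.48%) lower, and in thin limb-like nuclei 211 of 1788 (11.8%) and 152 (8.5%). Over all nuclei Calb1, the calcium buffer calbindin of the connecting tubule, was at 60.1 and 24.9 CPM (2.42-fold lower, 1.96 to 3), and Aqp2, the vasopressin-regulated water channel, at 51.3 and 14.2 CPM (3.61-fold lower, 2.76 to 4.78). Summed collecting duct principal markers, which lie outside the GFP label, were at 105 and 54.9 CPM.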

How the data were processed

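Single-nucleus RNA was measured in 5 GFP-sorted libraries, 1 per group, of which 2 are compared. The authors deposited UMI counts per gene and nucleus, for which the submitters' processing notes name Cell Ranger 2.1, bcl2fastq 2.17, STAR 2.5.1b and an mm10 pre-mRNA reference. How barcodes were called is not given in the sources used here. The counts were summed over nuclei of a library and segment and divided by the total to give CPM. Ratios carry exact conditional Poisson intervals and shares of nuclei exact Clopper-Pearson intervals, at 95%, for counting error only. The floor of 3 counts is 0.419 CPM without injury and 0.667 CPM at 64 h. No test was made, as each side is 1 library.

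Nuclei of all 5 libraries were clustered together (2000 variable genes, 30 principal components, 15 neighbours, Leiden resolution 1, seed 0) with igraph 0.11.9 and scikit-learn 1.9.0 under Python 3.11.15. Each cluster took the name of the best-scoring marker class, with the suffix "-like", given at least 3 markers and a margin of 0.3 on the log2 scale (10 CPM added). Limits that left clusters unnamed were set after seeing the data. No doublet caller was run, and a deep cluster with markers of 2 classes (114 and 20 nuclei) was left unnamed. Plotted log2 folds add 1 CPM. TMM factors came from edgeR 4.0.16 in R 4.3.3. Genes were placed with GENCODE mouse release M21 (27645 of 27998 matched by identifier).

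The members and gene lists were chosen with earlier results of these data known. Named genes are the 15 each way whose interval bound nearest to 1 lay farthest from it, the 10 each way with the largest difference between proximal tubule and thick limb, and list members. Alternatives were other scalings, minimum counts, thinning, clustering settings and, added after seeing the data, subsets of proximal clusters. The ratio procedure was tested on simulated data. The other 3 libraries serve only as levels beside the comparison. A few results are not reported here.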

Additional observations from a re-analysis of the deposited data

Results flagged for a closer look

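Of the genes measured in both segments, 3 stood at least 2-fold on opposite sides in proximal tubule-like and thick ascending limb-like nuclei, a difference that was not tested. Slc12a3 had a ratio of 64 h to no injury of 0.425 in proximal and 2.99 in thick limb-like nuclei. Kcnj2 had 0.35 and 2.05. Gm26561 had 3.39 and 0.308. In the Lcn2-led thick limb cluster at 64 h there were 283 Slc12a3 UMIs, and 25 in the other thick limb-like nuclei.

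Some genes that led the 64 h comparison were also far above the uninjured GFP-positive level in libraries outside it. At 28 d Mid1 was at 1737 CPM over all nuclei, against 167 CPM without injury and 130 CPM at 96 h. At 96 h Lcn2 was at 52.8 CPM, Mrap2 at 499 CPM, Clu at 198 CPM and Krt20 at 60.3 CPM. In the same library Tmsb10 was at 162 CPM, Fgg at 69.5 CPM and Ccdc73 at 127 CPM. Each of these groups is also 1 library, and the 96 h library was shallower than the 2 compared here.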

How the results depend on the processing

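No paired analysis was possible because each group has 1 library and no test was made. Counts are given as genes at least 2-fold higher and lower, and the alternatives were fixed early except the Slc5a2-led subset and the one without the Cyp7b1-led cluster, chosen after seeing the data. Over all nuclei TMM scaling gave 729 lower, a minimum of 20 UMIs 769 lower, a minimum of 200 UMIs 530 and 223, and thinning to 600 UMIs per nucleus 633 and 300. In proximal tubule-like nuclei TMM gave 575 and 698, totals without the 50 most abundant genes 591 and 677, 20 UMIs 754 lower, 200 UMIs 462 and 183, no minimum 1516 and 855, thinning 233 lower, and the Slc5a2-led clusters alone 254 and 175. In thick limb-like nuclei 20 UMIs gave 686 and 383, 200 UMIs 46 and 24, no minimum 3255 and 2533, thinning 130 and 76, resolution 0.5 89 and 74, and leaving out the injury-led clusters 74 and 74. Fewer or more genes measured, or fewer nuclei, set part of these shifts by construction.

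The ratio passed to the other side of 1 for Fbxo17 in proximal nuclei (0.959, Slc5a2-led clusters only) and Phactr1 in thick limb nuclei (0.671, nuclei classed one by one). The Fbxo17 value rests on at most 12 UMIs without injury, too few to give a direction. In thick limb-like nuclei the median log2 fold of conjugation genes was 0.66 and that of fatty acid oxidation genes 0.99 at a minimum of 200 UMIs. That limit changes no gene's ratio, and 664 of the 3511 measured genes passed it. These 2 medians thus moved only because list members dropped out. The median of profibrotic genes became -0.05 at resolution 0.5 and -0.18 without the injury-led clusters, and the cause of this shift was not tested. The proximal share became 75.9% without injury with nuclei classed one by one, and at 64 h 60.4% with only the 2 libraries clustered and 69.7% one by one. The thick limb share became 11.4% without injury one by one, and at 64 h 7.34% at resolution 0.5 and 12.5% one by one. Mid1 over all nuclei stayed between 14.3-fold and 18-fold, and Cyp7b1 between ratios of 0.0179 and 0.0385. Over all alternatives, 1015 ratios of named genes stayed within 1.5-fold of the reported value and 151 moved farther without turning. Of the list medians, 1645 stayed within 0.5 on the log2 scale and 64 moved farther. Some alternatives could not pass these limits, so the counts overstate stability. The 10% limit on mitochondrial UMIs removed no nucleus (highest share 4.68%, at 64 h). A changed minimum count alone leaves a gene's ratio as it is. TMM scaling, like totals without the most abundant genes, shifts all log2 folds of a segment together, by -0.22 at the largest.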
